A study of Mus musculus with 6 samples.

Results

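The day-night difference under nobiletin was taken from a pair of pooled liver RNA samples, NOB at ZT14 against NOB at ZT2, and it is described here across genes. The study's 6 arrays, Illumina expression bead arrays, covered 3 arms at 2 times of day. Mice of the RC arm ate regular chow, and those of the HFD and NOB arms a high-fat diet. The RC and HFD arms received vehicle and the NOB arm received nobiletin, a citrus flavone, as an oral dose of 200 mg/kg on alternate days over 10 weeks. All mice were C57BL/6J, 18 weeks old and fed ad libitum, the lights were on for 12 h and off for 12 h, and livers were taken at ZT2 (2 h after lights on) or ZT14 (2 h after lights off). Each array held RNA pooled from 4 mice, so the spread between mice cannot be seen. The labels name neither the sex of the mice nor the hour of dosing. The HFD arm shares the diet and the oral dosing of the NOB arm and lacks the drug. The RC arm, which also received vehicle, lacks the drug and the high-fat diet. The comparison asked which transcripts differed between early day and early night under nobiletin, and which of these differences were also seen without the drug or without the diet.

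Of 45281 probes, 14373 had a detection p under 0.01 on at least 1 of the 2 NOB arrays, and 12551 had it on both. The detection p gives the share of negative-control probes at least as bright as the probe. The 12437 probes with 1 gene symbol stood for 8505 genes, each read from its brightest probe, and 201 of these genes had only clone or predicted-locus names. Both NOB arrays detected 7680 of the genes, 659 were detected at ZT2 only and 166 at ZT14 only. All levels below are log2 intensities after background correction and quantile normalization, and a difference is the level at ZT14 minus that at ZT2. With 1 array on each side, differences within an arm carry no error and no test.

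Day and night in the liver are set apart by the circadian clock and by feeding. The activators CLOCK and BMAL1 (Arntl) switch on Per, Cry and Nr1d genes through E-boxes, and the products of these genes feed back on the activators, while ROR receptors drive Arntl and REV-ERB proteins (Nr1d1, Nr1d2) repress it. Nobiletin is known as an agonist of the ROR receptors. Mice eat mostly in the dark, and feeding drives fatty acid and sterol synthesis through SREBP factors, while the unfolded protein response follows the secretory load of the endoplasmic reticulum and the heat shock response follows body temperature. Samples at only these times give neither the phase nor the amplitude of a rhythm.

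The arrays were of similar quality, with 28.1% to 32.0% of probes detected and median raw signals of 57.5 to 62.4. The tissue label fitted the markers of hepatocytes, the main cell type of liver: of 9 such markers on the array, 8 were detected in NOB at ZT2 and 7 at ZT14, and apolipoprotein A-I (Apoa1) lay at 14.36 and 14.23, near the top of the scale. The probe of albumin (Alb) was dim, at 5.16 and 4.77, on arrays where the other hepatocyte genes were bright. In whole liver, fewer cells of a type and less RNA per cell cannot be told apart.

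Promoters of 5 genes are shown because the results below turn on their gene groups: 3 genes of the endoplasmic reticulum stress response, 1 of the heat shock response and 1 clock gene. Each window covers 250 bases before and 50 after the RefSeq transcription start on GRCm38.p6, read 5′ to 3′ on the strand of the gene. Calr lies on the minus strand at chr8:84846882-84847181, Creld2 on the plus strand at chr15:88819396-88819695 and Hspa5 on the plus strand at chr2:34771840-34772139, and capitals in these mark the endoplasmic reticulum stress element, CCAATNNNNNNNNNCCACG, on either strand. Hsph1 lies on the minus strand at chr5:149636287-149636586, with the heat shock element TTCNNGAANNTTC in capitals. Ciart lies on the minus strand at chr3:95882179-95882478, with its 3 E-boxes, CACGTG, in capitals.
Calr: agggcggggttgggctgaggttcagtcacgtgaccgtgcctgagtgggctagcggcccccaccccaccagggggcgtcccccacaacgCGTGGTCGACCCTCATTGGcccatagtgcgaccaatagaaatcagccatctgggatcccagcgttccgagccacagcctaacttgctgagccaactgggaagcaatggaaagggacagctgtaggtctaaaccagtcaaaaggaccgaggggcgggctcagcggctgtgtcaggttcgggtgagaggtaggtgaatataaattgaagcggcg
Creld2: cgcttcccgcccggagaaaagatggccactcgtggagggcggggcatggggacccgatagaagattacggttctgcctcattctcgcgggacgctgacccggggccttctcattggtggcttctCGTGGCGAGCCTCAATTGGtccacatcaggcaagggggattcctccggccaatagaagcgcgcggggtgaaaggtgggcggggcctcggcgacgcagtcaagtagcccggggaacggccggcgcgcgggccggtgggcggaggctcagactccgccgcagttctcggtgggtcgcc
Hspa5: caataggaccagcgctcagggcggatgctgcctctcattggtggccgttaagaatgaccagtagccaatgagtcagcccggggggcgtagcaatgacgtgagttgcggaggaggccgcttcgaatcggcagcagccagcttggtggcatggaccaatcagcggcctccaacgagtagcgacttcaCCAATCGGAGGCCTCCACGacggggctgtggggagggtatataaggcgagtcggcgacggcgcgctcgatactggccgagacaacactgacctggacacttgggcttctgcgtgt
Hsph1: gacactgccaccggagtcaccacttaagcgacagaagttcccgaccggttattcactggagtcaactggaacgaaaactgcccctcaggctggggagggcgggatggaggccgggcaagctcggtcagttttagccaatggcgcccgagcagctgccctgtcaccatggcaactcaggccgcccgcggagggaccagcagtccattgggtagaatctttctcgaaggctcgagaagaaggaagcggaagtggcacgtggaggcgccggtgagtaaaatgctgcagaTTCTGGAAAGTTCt
Ciart: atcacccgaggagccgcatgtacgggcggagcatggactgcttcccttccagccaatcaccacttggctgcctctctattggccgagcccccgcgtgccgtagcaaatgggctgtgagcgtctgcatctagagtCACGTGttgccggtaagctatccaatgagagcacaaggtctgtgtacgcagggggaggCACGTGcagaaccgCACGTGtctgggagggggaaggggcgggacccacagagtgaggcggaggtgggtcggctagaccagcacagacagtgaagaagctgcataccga
The endoplasmic reticulum stress element was present in 0.137% of the 27025 genes with a window, the heat shock element in 0.662% and the E-box in 8.09%.

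In the NOB arm 66 of 8505 genes (0.776%) were at least 2-fold higher at ZT14 and 39 (0.459%) were at least 2-fold lower, which together made 1.23% of the genes. These counts use the measured levels: 5 of the higher and 4 of the lower genes were detected on 1 of the NOB arrays only, and for 3 and 2 of them the fold against the dimmest detected signal of the other array, a lower bound, was itself at least 2-fold. The same counts were 62 (0.729%) and 31 (0.364%) in HFD, and 82 (0.964%) and 78 (0.917%) in RC. Outside the limma fits, differences in HFD and RC are given only for these 8505 genes, chosen by detection in NOB. Genes detected only on HFD or RC arrays are left out, so the counts of the arms are not on equal terms. The differences of all genes had an SD of 0.34 in NOB, 0.31 in HFD and 0.38 in RC, and in NOB they ran from -3.50 to 2.95 around a median of 0.00. Of the 105 genes past 2-fold in NOB, 5 higher and 5 lower genes were past 4-fold. The threshold cut through a dense part of the distribution: Gal3st1 and Ces1d lay just inside it at 1.0 each, Rrp12 and Me1 just outside at 0.999 and 0.997, and among the lower genes Ero1b and Creld1 at -1.01 each lay just inside, with Arhgef5 at -0.999 and Agxt at -0.993 just outside. At 1.5-fold, 336 genes (3.95%) were higher and 296 (3.48%) were lower in NOB. The shares past 1.5-fold were 2.9% higher and 2.32% lower in HFD, and 3.86% and 5.31% in RC.

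The most distant gene on the higher side was Plin4, a perilipin that coats lipid droplets. It lay at 7.51 at ZT2 and 10.46 at ZT14 in NOB, at 9.56 and 9.99 in HFD and at 5.95 and 7.05 in RC, so the NOB level at ZT2 stood below both HFD levels and that at ZT14 stood above them. The NOB difference was 2.95, that of HFD 0.43 and that of RC 1.10. Nrg4, which encodes the secreted growth factor neuregulin 4, lay at 5.50 and 7.66 in NOB, a difference of 2.16. Mt1, a zinc-binding metallothionein and one of the brighter transcripts of the array, lay at 11.42 and 13.42, a difference of 2.00. Lrrc28, a leucine-rich repeat gene, lay at 8.34 and 10.09, a difference of 1.75, against 0.70 in HFD and 0.68 in RC.

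On the lower side the most distant was Hectd2os, a transcript of the strand opposite Hectd2, at 9.04 at ZT2 and 5.54 at ZT14. Socs2, a feedback inhibitor of growth hormone signalling, lay at 9.99 and 7.64, and Serpina1e, a secreted serpin of hepatocytes, at 11.65 and 9.56. Car14, a membrane-bound carbonic anhydrase, lay at 8.96 and 7.27, a difference of -1.68 against -0.74 in HFD and -1.07 in RC. Where an array did not detect a gene, its fold is a lower bound against the dimmest detected signal of that array. By this bound the B-cell chemokine Cxcl13 was at least 4.65-fold higher at ZT14 in NOB, the troponin Tnnc1 at least 2.80-fold and the orphan receptor Gprc5b at least 2.45-fold. Nr1d1 was at least 2.84-fold lower and the steroid dehydrogenase Hsd3b5 at least 2.77-fold lower.

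**Figure D1:**
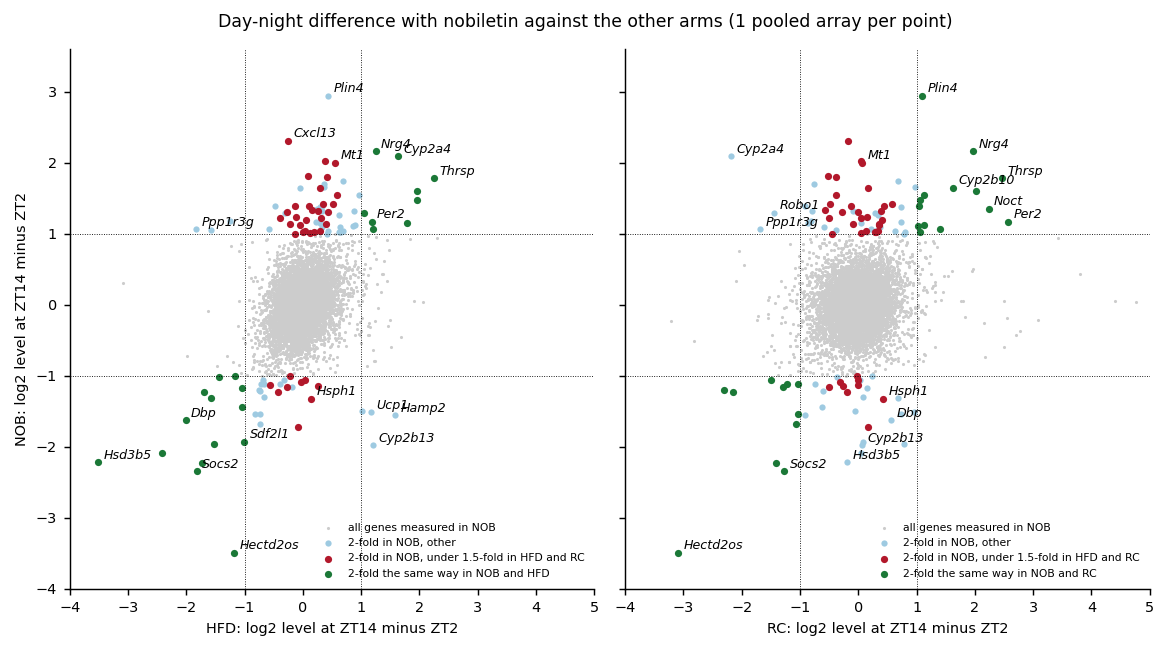
Day-night difference of each of 8505 genes in NOB (vertical axis, log2 level at ZT14 minus ZT2) against that in HFD (left) and in RC (right), 1 pooled array per level. Green points are at least 2-fold the same way in both arms of the panel, red points are at least 2-fold in NOB and under 1.5-fold in both other arms, light blue points are the other 2-fold genes of NOB, and dotted lines mark 2-fold. More of the lower NOB genes reach 2-fold in HFD (14 of 39) than in RC (11 of 39), and more of the higher genes do so in RC (14 of 66) than in HFD (9 of 66).

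Of the 66 higher genes, 9 were also at least 2-fold higher in HFD, which was 13.6% of the NOB list and 14.5% of the HFD list. With RC, 14 were shared, 21.2% of the NOB list and 17.1% of the RC list. Of the 39 lower genes, 14 were shared with HFD (35.9% and 45.2%) and 11 with RC (28.2% and 14.1%). The sign alone was the same in HFD for 51 of the 66 higher and 32 of the 39 lower genes, and in RC for 43 and 24. Of all genes, 47.7% lay above 0 in HFD and 47.2% in RC. Across all 8505 genes the NOB differences correlated with those of HFD at r = 0.323 (rho = 0.278) and with those of RC at r = 0.152 (rho = 0.110), while HFD and RC correlated at r = 0.236 (rho = 0.146). These are descriptions across genes, which are not independent, and all 6 arrays were normalized together.

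Read from the other side, the 82 genes that were 2-fold higher in RC had a median difference of 0.43 in HFD and 0.27 in NOB, and the 78 that were 2-fold lower in RC had medians of -0.38 and -0.26. The 31 genes 2-fold lower in HFD had a median of -0.87 in NOB, and 14 of them were past 2-fold there. The 62 genes 2-fold higher in HFD had a median of 0.29 in NOB, and 9 were past 2-fold. Both other arms shared 17 genes that were 2-fold higher and 8 that were 2-fold lower, of which 6 and 4 were also past 2-fold in NOB.

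Those 10 genes were past 2-fold the same way in all 3 arms: Thrsp, Nrg4, Tnnc1, Per2, Elovl6 and Lingo4 higher at ZT14, and Hectd2os, Socs2, Nr1d1 and Chac1 lower. Thrsp, a nuclear factor that promotes fat synthesis, lay at 10.95 and 12.73 in NOB, 10.69 and 12.94 in HFD and 10.05 and 12.51 in RC. All its ZT14 levels stood above all its ZT2 levels. Elovl6, the elongase that makes stearate from palmitate, lay at 8.76 and 9.83 in NOB and differed by 1.07 there, 1.20 in HFD and 1.41 in RC. Per2, a clock repressor, differed by 1.17 in NOB, 1.18 in HFD and 2.57 in RC.

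Among the lower genes, Nr1d1 was undetected at ZT14 in every arm, which made it at least 2.84-fold lower in NOB, at least 2.19-fold in HFD and at least 2.24-fold in RC, with no order between the arms. Socs2 differed by -2.35 in NOB, -1.82 in HFD and -1.27 in RC. Chac1, an enzyme that degrades glutathione and a target of the stress factor ATF4, differed the other way round in size, by -1.23, -1.69 and -2.16. In the limma test of NOB against the mean of the other arms, described further on, Socs2 departed by -0.80 ± 0.33 (SE, unadjusted p = 0.0494) and Chac1 by 0.70 ± 0.32 (SE, unadjusted p = 0.0688), and neither passed after adjustment (adjusted p = 0.9999 for each).

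The arms can serve as 3 blocks for a test of a common day-night change. In limma with arm as a block, 2 of 8561 genes (0.0234%) passed at a false discovery rate of 0.05: Thrsp rose by 2.17 ± 0.16 (SE, adjusted p = 0.0131) and Tnnc1 by 1.86 ± 0.13 (SE, adjusted p = 0.0131), both higher in 3 of 3 arms. At an unadjusted p under 0.05 there were 932 genes. Next in order were Nr1d1 at -1.79 ± 0.17 (adjusted p = 0.0572), Elovl6 at 1.23 ± 0.12 (adjusted p = 0.0595) and Nrg4 at 1.79 ± 0.19 (adjusted p = 0.0596). Without the HFD pair neither Thrsp nor Tnnc1 passed (adjusted p = 0.141 each) and Hectd2os alone did. Without the RC pair, that is in both high-fat arms, 11 genes passed, Thrsp and Tnnc1 among them with Dbp, Egfr, Rgs16, Hsd3b5 and Serpina1e, and without the NOB pair 6 passed, again with Thrsp and Tnnc1.

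Limits apply to both. A second, dimmer Thrsp probe read -0.59 in NOB where the brightest read 1.78, and with the mean of all detected probes Thrsp no longer passed (adjusted p = 0.188). Tnnc1, the troponin C of slow muscle and heart, was undetected in NOB at ZT2 (4.79) and reached 6.39 at ZT14. It stood among 20 skeletal muscle markers on the array, of which 9 were detected on each NOB array, 14 and 16 on the HFD arrays and 10 and 18 on the RC arrays. The summed linear level of those markers was 1023 and 1120 in NOB, 1190 and 2152 in HFD and 953 and 7195 in RC at ZT2 and ZT14, and their part in the Tnnc1 result was not tested.

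A further 8 higher genes were 2-fold in NOB and RC and not in HFD. They were Plin4, Cyp2b10, Noct, Nampt, Tnfrsf12a, Tspan4, Caln1 and Lrp4. Of these, Tnfrsf12a (0.97), Tspan4 (0.89), Caln1 (0.86) and Lrp4 (0.65) were higher in HFD too, by more than 1.5-fold and short of 2-fold. Cyp2b10, a drug-metabolizing cytochrome P450 induced through the receptor CAR, lay at 7.19 and 8.83 in NOB (1.65), 8.47 and 10.10 in RC (1.63), and 5.97 and 5.92 in HFD (-0.05). Noct, the clock-regulated phosphatase nocturnin, differed by 1.35 in NOB, 2.23 in RC and 0.24 in HFD. Nampt, the rate-limiting enzyme of NAD salvage, differed by 1.39, 1.04 and 0.33 in the same order. Genes that are listed here only to fill out a count were chosen after their values were seen.

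Genes that were 2-fold higher in NOB and HFD and not in RC numbered 3: Cyp2a4 and the thioesterases Acot1 and Acot3. Acot1, which releases fatty acids from acyl-CoA under control of PPAR-alpha, differed by 1.30 in NOB, 1.06 in HFD and 0.29 in RC, and Acot3 by 1.15, 1.78 and 0.04. The lower side held 10 such genes, namely Serpina1e, Hsd3b5, Rgs16, Sdf2l1, Dbp, Calr, Egfr, Creld2, Slc25a30 and Ero1b. Egfr, the epidermal growth factor receptor, lay at 9.96 and 8.65 in NOB, 9.78 and 8.20 in HFD and 10.42 and 11.10 in RC. Of the 7 lower genes shared with RC and not HFD, Cish, another feedback inhibitor of cytokine and growth hormone receptors, differed by -1.16 in NOB and -1.30 in RC, and Cbs, the first enzyme of transsulfuration, by -1.12 and -1.04. In HFD Cish differed by -0.19, while Cbs, at -0.68, was past 1.5-fold lower there too.

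Among clock genes, the list of repressors and output factors, called dusk genes here, had 10 of 14 members measured. In NOB 1 was past 2-fold higher (0.776% of all genes were) and 2 were past 2-fold lower (0.459% of all genes). Its members need not share a peak time, as Nr1d1 was lower at ZT14 in every arm. Their median difference was 0.26 in NOB, 0.16 in HFD and 1.15 in RC, against 0.00, -0.01 and -0.02 over all genes. Per1 lay at 6.86 and 7.10 in NOB (0.24) and differed by 0.22 in HFD and 1.26 in RC. Tef, a transcription factor of the clock output, differed by 0.28, 0.10 and 1.31, and Cry2, a clock repressor, by 0.31, 0.53 and 0.94.

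Ciart, a repressor with the 3 E-boxes printed above, lay at 6.12 and 5.87 in NOB and at 5.82 and 5.80 in HFD, while RC went from 5.29 to 7.45. Usp2, a clock-controlled deubiquitinase, had its smallest difference in NOB, at 0.94 against 2.30 in HFD and 3.43 in RC. Dbp, a transcription factor of the clock output, lay at 10.31 and 8.68 in NOB and at 10.45 and 8.44 in HFD, against 8.66 and 9.23 in RC. Nr1d2 differed by -0.72, -1.31 and 0.45, and Bhlhe40, a repressor of CLOCK and BMAL1, by 0.31, 0.60 and 1.04.

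Of the activators, Arntl lay at 5.66 and 6.07 in NOB (0.42) and differed by 0.90 in HFD and -1.03 in RC, and Clock differed by -0.19, -0.37 and -0.10. Rora, the only receptor of its family that was measured, lay at 7.89 and 7.58 in NOB, a difference of -0.31. In each of the 9 dusk genes detected on both NOB arrays the RC difference was the highest of the 3 arms and the NOB difference lay closer to that of HFD than to that of RC. Nr1d1, the other measured dusk gene, has only the bounds given above. No clock gene passed the test of NOB against the other arms given further on, except Usp2 after scale normalization.

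**Figure D2:**
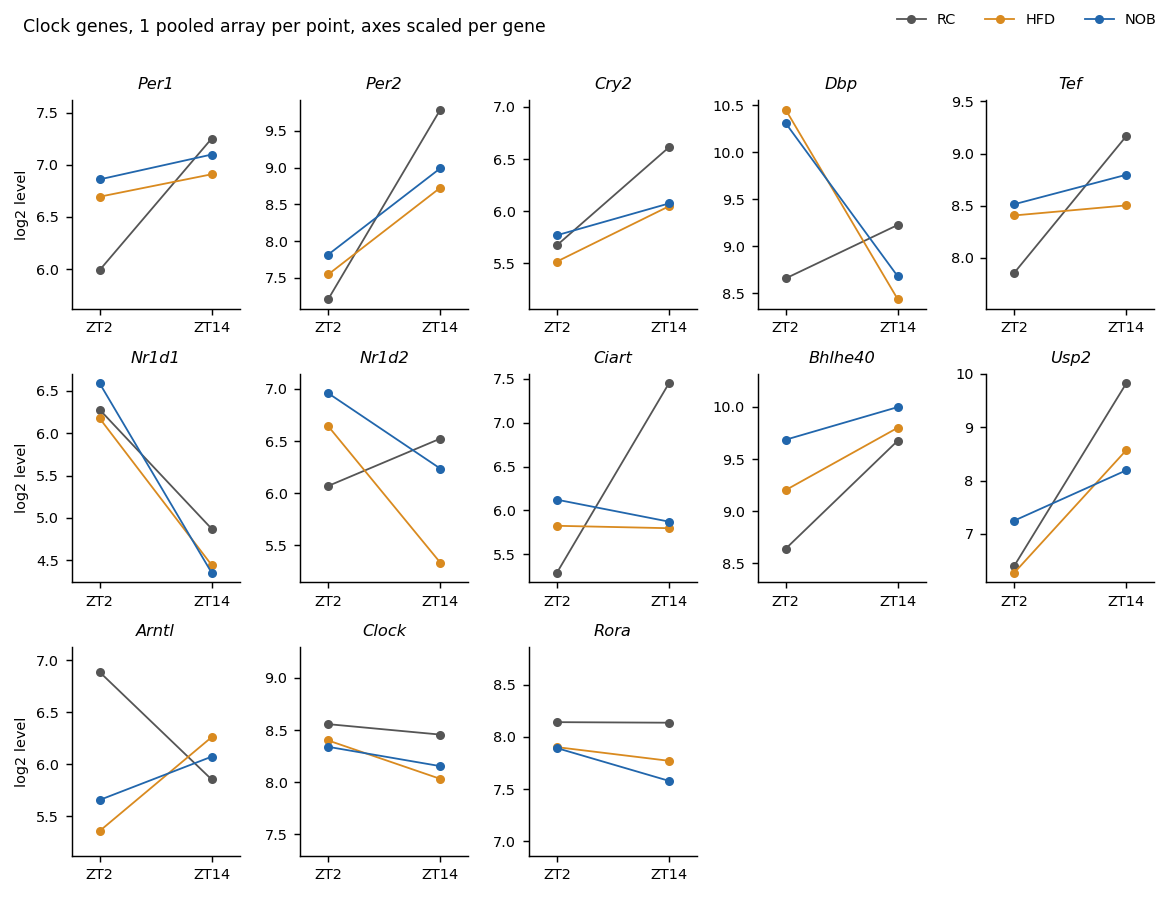
Log2 level of the 13 measured clock genes at ZT2 and ZT14 in RC (grey), HFD (orange) and NOB (blue), 1 pooled array per point, with vertical axes scaled per gene. The NOB and HFD lines run close together for Dbp, Ciart, Tef and Per1, where the RC line is steeper or runs the other way, and all 3 lines run downward for Nr1d1, whose ZT14 points (4.35 in NOB, 4.44 in HFD and 4.87 in RC) were all undetected.

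The unfolded protein and integrated stress response was the group with the lowest median in NOB among the lists of 10 or more measured genes. Of 18 measured members, 4 were past 2-fold lower (0.459% of all genes were) and 11 were at least 1.5-fold lower (3.48% of all genes). By its measured levels 1 (Asns, undetected at ZT2) was past 2-fold higher (0.776% of all genes). The list median was -0.70 in NOB, -0.57 in HFD and 0.07 in RC. Sdf2l1, a chaperone cofactor of the endoplasmic reticulum, lay at 7.83 and 5.89 in NOB (-1.94), 7.34 and 6.33 in HFD (-1.01) and 8.87 and 8.95 in RC (0.08). Calr, the calcium-binding chaperone calreticulin, lay at 9.23 and 7.79 in NOB (-1.43) and differed by -1.05 in HFD and -0.63 in RC. Creld2, a stress-induced protein of the same compartment, differed by -1.17, -1.04 and 0.16.

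The disulfide isomerases Pdia4 and Pdia6 lay at -0.95 and -0.78 in NOB, and Xbp1, the transcription factor of this response, at -0.76, against 0.63 in RC. Hspa5, the chaperone BiP, was dim, at 5.65 and 4.98 with ZT14 undetected, which made it at least 1.48-fold lower. On the ATF4 side of the list Chac1 differed by -1.23 and Trib3, a pseudokinase, by -0.80. Asns, asparagine synthetase and also an ATF4 target, went the other way, at 4.49 (undetected) and 5.67, which made it at least 1.69-fold higher in NOB. In HFD, where ZT14 was undetected, it was at least 2.10-fold lower, and in RC it differed by -0.82. Atf4 itself lay at 9.49 and 9.73.

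The heat shock list had a median of -0.44 in NOB, 0.09 in HFD and 0.44 in RC. Of 12 measured members, 1 was past 2-fold lower (0.459% of all genes were) and 4 were at least 1.5-fold lower (3.48% of all genes) in NOB, with none past 1.5-fold higher. Hsph1, a cytosolic chaperone of the HSP110 family whose heat shock element is shown above, lay at 9.91 and 8.59 in NOB (-1.32), 8.61 and 8.74 in HFD (0.13) and 10.30 and 10.72 in RC (0.42). The NOB level lay between those of HFD and RC at ZT2 and was the lowest of the 3 at ZT14. Hsp90aa1 differed by -0.83 in NOB and 0.76 in RC, its co-chaperone Stip1 by -0.90 and 0.45, and the J-domain protein Dnajb1 by -0.80 and 0.47. Hspa8, the constitutive HSC70, lay at 12.80 and 12.47, and the mitochondrial chaperonin genes Hspd1 and Hspe1 at -0.07 and 0.27. Cirbp, a cold-induced RNA-binding protein, had the opposite sign, at 0.80 in NOB, -0.34 in HFD and -0.27 in RC.

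Genes of fatty acid synthesis were mostly higher at ZT14 in NOB. Of 21 measured, 19 lay above 0 (50.2% of all genes did) and 10 were at least 1.5-fold higher (3.95% of all genes were). Past 2-fold higher were 2 (0.776% of all genes), and the list median was 0.49 in NOB, 0.34 in HFD and 0.10 in RC. Srebf1, the SREBP factor that drives the pathway, lay at 6.97 and 7.93 in NOB (0.96) and differed by 0.20 in HFD and 0.66 in RC. Me1, malic enzyme, which supplies NADPH, lay at 7.12 and 8.12, and Pnpla3, a lipase-family protein of lipid droplets, at 5.04 and 6.00 (0.96). The cytosolic enzymes Acly, at 0.60, and Acss2, at 0.73, had differences of -0.53 and -0.78 in RC. Lpin1, a phosphatidate phosphatase, was the main exception, at -0.73 in NOB, 0.59 in HFD and 2.17 in RC.

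The list of cholesterol synthesis and uptake had 15 of 18 measured members above 0 in NOB, where 50.2% of all genes were, with none past 2-fold and 4 past 1.5-fold higher (3.95% of all genes were). Its median was 0.50 in NOB, 0.00 in HFD and 0.04 in RC, and the NOB median stayed between 0.43 and 0.50 under the other normalizations. Pmvk, which makes mevalonate diphosphate, lay at 7.68 and 8.55 (0.87 in NOB, 0.52 in HFD and -0.40 in RC). Lss and Nsdhl, enzymes of lanosterol formation and of its demethylation, both differed by 0.65 in NOB and by at most 0.22 in the other arms. Msmo1, a sterol oxidase, differed by 0.51 in NOB, -0.62 in HFD and 0.13 in RC. Mvd, at -0.69, and the sterol carrier Stard4, at -0.53, were lower in NOB.

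In the lipid droplet list 2 of 16 measured genes were past 2-fold higher and 7 past 1.5-fold, against 0.776% and 3.95% of all genes, with a median of 0.36 in NOB, 0.19 in HFD and 0.42 in RC. Cidec, which fuses lipid droplets, lay at 5.83 and 7.49 in NOB (1.66), 8.44 and 8.81 in HFD (0.37) and 4.55 (undetected) and 5.53 in RC. Plin2, the main perilipin of hepatocytes, differed by 0.64 in NOB, -0.41 in HFD and -0.23 in RC. G0s2, an inhibitor of the lipase ATGL, had little difference in NOB, at -0.19, where HFD showed 1.02 and RC 2.55. Cidea lay at 6.62 and 6.67 in NOB and differed by -1.09 in HFD and 1.79 in RC.

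Fatty acid oxidation and PPAR-alpha targets had 2 of 20 past 2-fold higher (0.776% of all genes were) and a list median of 0.24. The 2 were Acot1 and Pex11a, a factor of peroxisome division at 10.74 and 11.77 in NOB. In bile acid synthesis and transport none of 14 was past 2-fold: Cyp7a1, the rate-limiting enzyme, lay at 9.35 and 10.18 (0.84), the cholesterol exporter Abcg5 at 10.29 and 11.02 (0.72) and the bile salt export pump Abcb11 at 9.53 and 8.73 (-0.80). G6pc, the phosphatase that releases glucose, was the only member past 2-fold among 15 genes of glucose metabolism. It lay at 11.12 and 12.44 in NOB (1.31), 11.97 and 12.40 in HFD (0.43) and 12.22 and 11.93 in RC (-0.29), so the NOB level was the lowest of the 3 at ZT2 and the highest at ZT14. Of 13 glucocorticoid-induced genes only Mt1 was past 2-fold, and Fkbp5, a cochaperone of the glucocorticoid receptor, differed by -0.42 in NOB, 0.90 in HFD and 2.71 in RC.

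The pattern of male-biased liver genes is set by pulses of growth hormone. Of 14 measured, 2 were past 2-fold lower and 1 past 2-fold higher in NOB, against 0.459% and 0.776% of all genes. The list medians were -0.24 in NOB, -0.33 in HFD and -0.03 in RC. Serpina1e lay at 11.65 and 9.56 in NOB, 13.26 and 10.86 in HFD and 14.35 and 14.40 in RC. Hsd3b5 lay at 6.55 and 4.34 (undetected) in NOB, 7.89 and 4.37 (undetected) in HFD and 11.07 and 10.87 in RC. Cyp4a12a, a fatty acid hydroxylase, was opposite between the high-fat arms, at 9.65 and 10.70 in NOB (1.06) and 10.24 and 8.66 in HFD (-1.58). Of 6 female-biased genes, Cyp2a4 (2.09) and Acot3 (1.15) were past 2-fold higher and Cyp2b13 (-1.98) past 2-fold lower. The Cyp2a, Cyp2b, Cyp4a12, Serpina1, Acot and Mup genes have near-identical copies, and whether a probe also bound RNA of a copy was not tested.

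Markers of Kupffer cells and other macrophages had 2 of 15 measured genes past 2-fold higher (0.776% of all genes were), with medians of 0.23 in NOB, 0.09 in HFD and -0.51 in RC, and 13 of 15 lay above 0 in NOB. Marco, a scavenger receptor, lay at 4.93 and 6.74, and Adgre1, an adhesion receptor of macrophages, at 6.95 and 8.11 in NOB, 7.36 and 7.65 in HFD and 7.32 and 6.45 in RC. The defining Kupffer cell genes Clec4f and Vsig4 lay at 0.07 and 0.16. Of 17 markers on the array, 15 were detected in NOB at ZT2 and 14 at ZT14, and their summed linear level was 5005 and 5851, against 5830 and 5703 in HFD and 4016 and 2947 in RC. The part of cell number in the higher macrophage values was not tested.

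Other cell types gave small groups. The neutrophil gene S100a8 lay at 5.54 and 6.39 in NOB, 7.82 and 6.77 in HFD and 6.09 and 4.93 (undetected) in RC, with 1 of 6 neutrophil markers detected in NOB at ZT2 and 2 at ZT14. The haemoglobin gene Hba-a1 lay at 13.29 and 12.79. Endothelial markers had a median of 0.03 over 9 genes. Skeletal muscle markers had a median of 0.06 over 11 genes in NOB, 0.95 in HFD and 2.02 in RC, and Pvalb, parvalbumin of fast muscle, was near background on both NOB arrays (5.03 and 5.06) and at least 24.5-fold higher at ZT14 in RC. Of the 11 genes, 8 were 2-fold higher in RC, 5 in HFD and 1, Tnnc1, in NOB, against 0.964%, 0.729% and 0.776% of all genes.

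**Figure D3:**
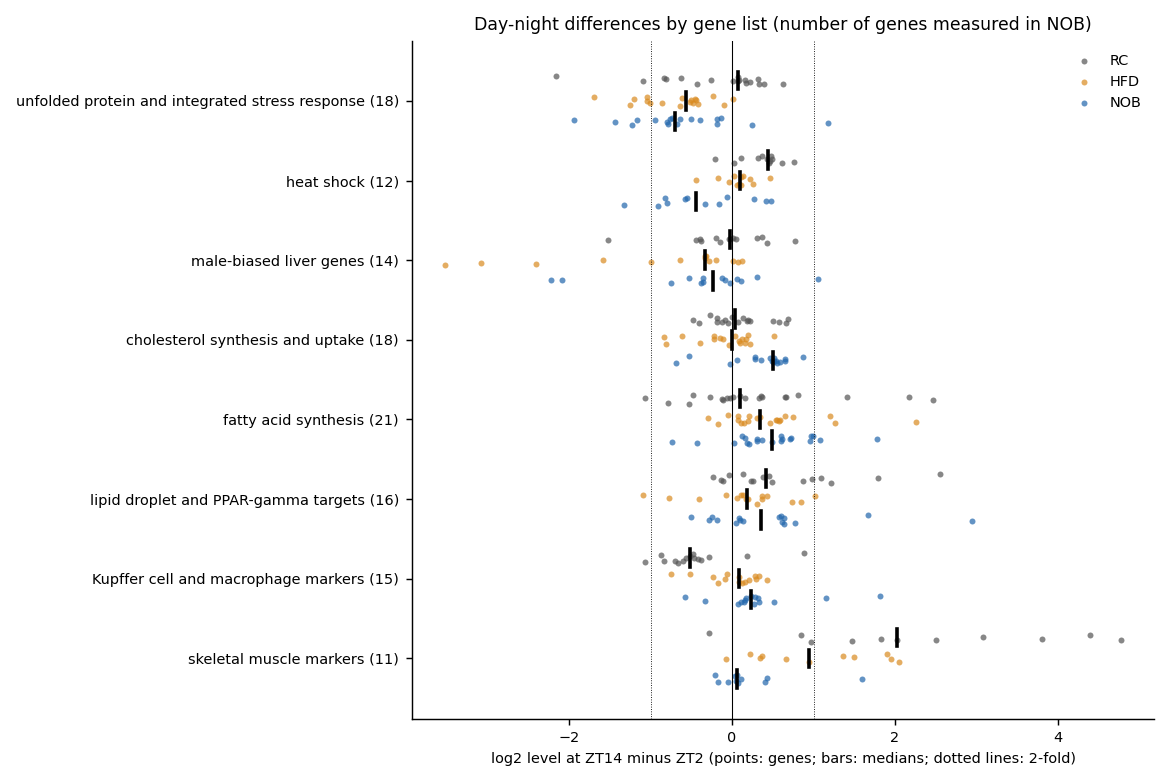
Differences between ZT14 and ZT2 for the genes of 8 lists (points, horizontal axis in log2), in RC (grey), HFD (orange) and NOB (blue), with the median of each list as a black bar and the number of genes measured in NOB in brackets. The stress response medians lie left of 0 in both high-fat arms (-0.70 and -0.57), the heat shock median lies left of 0 in NOB (-0.44) and right of it in RC (0.44), and the cholesterol median lies right of 0 in NOB (0.50) and at 0.00 in HFD.

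Of the 105 genes past 2-fold in NOB, 37 were under 1.5-fold in both other arms, 28 of them higher and 9 lower at ZT14. Past 2-fold the same way in neither were 67. Most of all 8505 genes were likewise under 1.5-fold in both. Past it were 2.9% higher and 2.32% lower in HFD, and 3.86% and 5.31% in RC. Past 2-fold were 0.729% and 0.364% in HFD, and 0.964% and 0.917% in RC. The rule for the class of 37 used the values of all 3 arms, so the values are given as a description. Cxcl13 lay at 4.81 (undetected) and 7.12 in NOB, 4.72 and 4.46 in HFD, both undetected, and 6.15 and 5.97 in RC. Marco differed by 1.81 in NOB, 0.09 in HFD and -0.51 in RC, and Tlr5, the receptor of bacterial flagellin, lay at 6.64 and 7.95 in NOB, 7.82 and 7.55 in HFD and 6.48 and 6.47 in RC. Mt1 lay at 12.11 and 12.66 in HFD and 12.84 and 12.91 in RC, so its NOB level was the lowest at ZT2 and the highest at ZT14.

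A second pattern in this class was a NOB level near that of RC at ZT2 and near that of HFD at ZT14. Haus8, a subunit of the augmin complex of the mitotic spindle, lay at 5.94 and 7.33 in NOB, 5.81 and 5.69 in RC and 7.69 and 7.56 in HFD. Synpo, an actin-associated protein, lay at 6.86 and 8.50 in NOB, 7.0 and 7.16 in RC and 8.55 and 8.85 in HFD. Ttc39a lay at 5.20 and 7.23 in NOB, was undetected at both times in RC (4.69 and 4.74) and lay at 7.31 and 7.69 in HFD, and Gprc5b lay at 4.40 (undetected) and 6.20 in NOB, 4.76 and 4.38 in RC, both undetected, and 6.80 and 7.21 in HFD.

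Among the 9 lower genes, Rgs3, a regulator of G protein signalling, lay at 7.63 and 5.90 in NOB, 5.59 and 5.51 in HFD and 6.16 and 6.32 in RC, so the NOB level stood above the others at ZT2 only. Its second probe read 0.27 in NOB, where this one read -1.72. Sdr9c7, a short-chain dehydrogenase, and Plekhf1, an endosomal adaptor, likewise stood above both other arms at ZT2 (7.58 and 7.94 in NOB against 6.34 to 6.89) and near them at ZT14 (6.52 and 6.71 against 6.39 to 6.61). Serpinh1, the collagen chaperone HSP47, lay at 9.36 and 8.21 in NOB, 8.90 and 9.16 in HFD and 9.11 and 8.85 in RC, and was the lowest of the 3 at ZT14. Creld1, at -1.01, Slc25a48, a mitochondrial carrier that was undetected at ZT14 and at least 1.63-fold lower, and the kinase gene Map3k21, at -1.16, completed the named genes. The gap between NOB and the mean of the other arms was larger at ZT14 for 17 of the 28 higher and 6 of the 9 lower genes, and at ZT2 for the other 11 and 3.

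**Figure D4:**
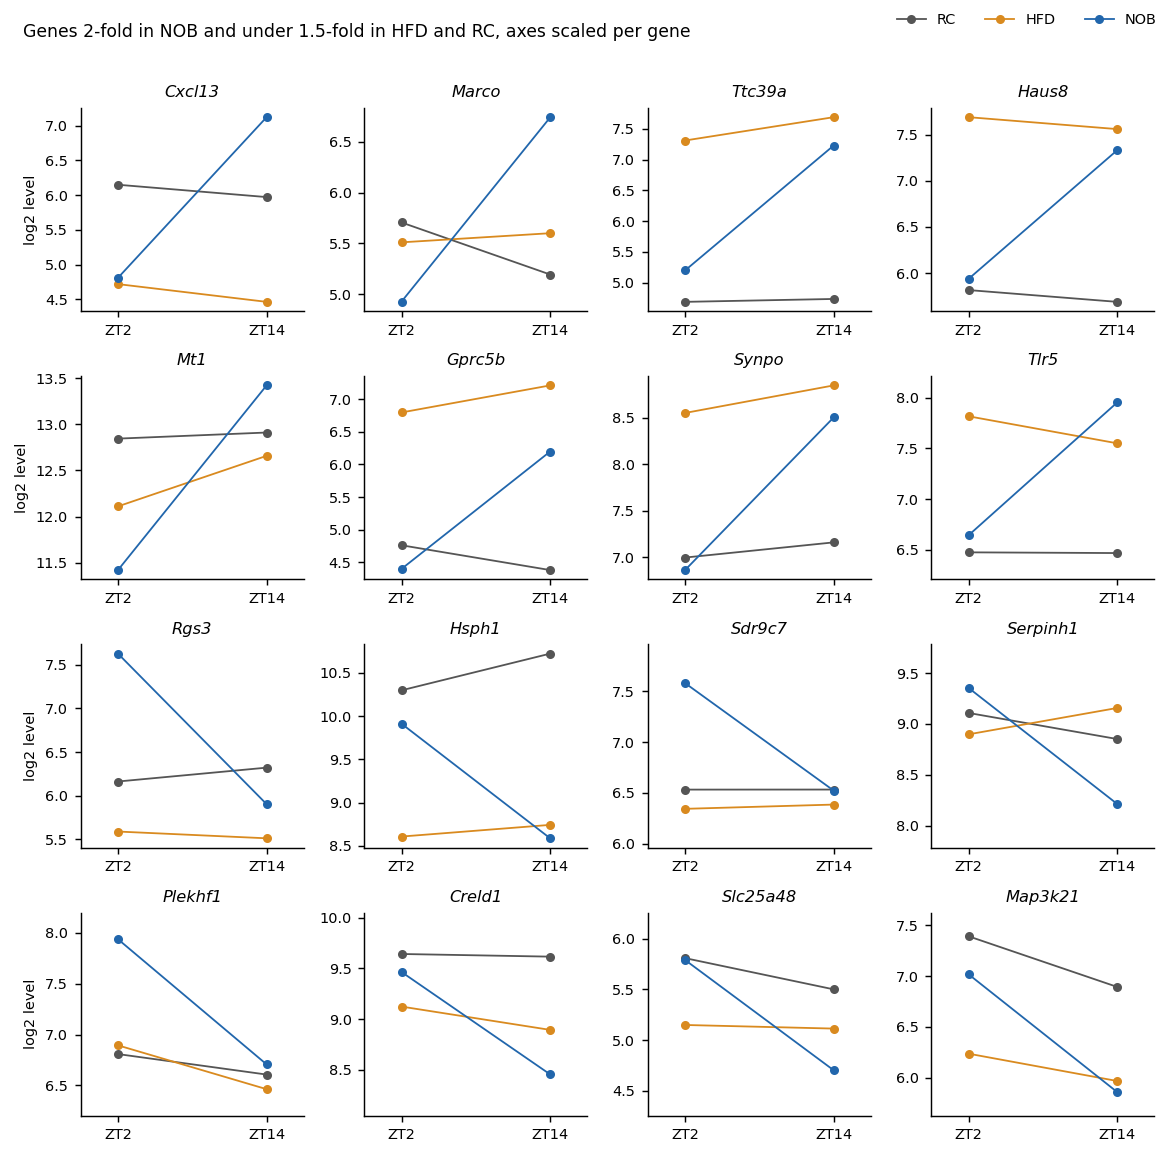
Log2 levels at ZT2 and ZT14 of 16 genes that were at least 2-fold in NOB (blue) and under 1.5-fold in HFD (orange) and RC (grey), 1 pooled array per point, with vertical axes scaled per gene. The blue line crosses from near RC to near HFD for Haus8 and Synpo, and starts above the others and ends near them for Rgs3, Sdr9c7 and Plekhf1.

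Whether the NOB difference departed from those of the other arms was tested in limma with the product of NOB and time, which leaves 1 residual degree of freedom. It called 0 of 8561 genes (0%), with 332 genes at an unadjusted p under 0.05, so no gene is called particular to NOB. In simulated data of the same size, with noise set from the fit with arm as a block, the test recovered 1% of 2-fold and 51% of 4-fold effects. The smallest adjusted p was 0.180, for Ppp1r3g at 2.83 ± 0.28 (SE), Cxcl13 at 2.53 ± 0.28 and Ucp1 at -2.57 ± 0.29 relative to the mean of HFD and RC. This count depended on the normalization and on how probes were combined. Scale normalization hardly moved the differences of these genes, to 2.81, 2.58 and -2.56 in the same order. The degrees of freedom that moderation added to this fit rose from 5.60 to 22.4. After scale normalization 40 genes passed, among them these 3, Marco, Mt1, Plin4, Ttc39a, Gprc5b, Haus8, Ly6d, Rgs3 and Hsph1, and also the muscle genes Acta1, Myl1 and Pvalb. With the mean of all detected probes the same 3 genes passed at an adjusted p of 0.0446, and with the authors' processed matrix none did.

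Some genes were at least 2-fold in NOB and at least 1.5-fold the opposite way in another arm, 11 of them higher and 7 lower. Of all genes, 2.32% were at least 1.5-fold lower in HFD and 5.31% in RC, and 2.9% and 3.86% were at least 1.5-fold higher. Ppp1r3g, a subunit that targets protein phosphatase 1 to glycogen, lay at 5.49 and 6.55 in NOB, 6.82 and 4.99 (undetected) in HFD and 6.16 and 4.47 (undetected) in RC. Its difference was 1.06 in NOB, and it was at least 3.42-fold lower in HFD and at least 2.07-fold lower in RC. Csad, which makes the taurine precursor hypotaurine, lay at 8.30 and 9.69 in NOB, 9.27 and 8.79 in HFD and 9.50 and 8.59 in RC. Both genes were lowest in NOB at ZT2 and highest there at ZT14.

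Cyp2a4 lay at 4.92 and 7.01 in NOB, 5.90 and 7.53 in HFD and 7.40 and 5.21 in RC, and Asb2, a subunit of a ubiquitin ligase, at 5.37 and 7.07, 6.03 and 6.40, and 6.33 and 5.57 in the same order. Robo1, a receptor of Slit guidance proteins, lay at 5.64 and 6.94 in NOB, 7.75 and 7.43 in HFD and 7.43 and 5.98 in RC. Tubb2b, a beta-tubulin, differed by 1.32 in NOB, 0.32 in HFD and -0.79 in RC. For Cyp2a4, Asb2 and Tubb2b the sign in NOB was that of HFD and the opposite sign was that of RC, while Robo1 had a negative sign in both other arms.

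On the lower side Hamp2, a hepcidin gene, lay at 12.43 and 10.87 in NOB, 10.88 and 12.45 in HFD and 12.05 and 11.13 in RC, so NOB and HFD crossed. Cyp2b13 lay at 7.50 and 5.52 in NOB and 8.17 and 9.37 in HFD, and was undetected in RC. Acnat2, an acyl-CoA amino acid N-acyltransferase, differed by -1.50 in NOB, 1.01 in HFD and -0.06 in RC. Bcl6, a repressor that counteracts growth hormone signalling through STAT5, lay at 9.20 and 7.66 in NOB, 8.58 and 7.85 in HFD and 9.12 and 9.86 in RC. Rgs16, a regulator of G protein signalling, lay at 11.49 and 9.52 in NOB, 11.54 and 10.01 in HFD and only 6.05 and 6.82 in RC.

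Ucp1, the uncoupling protein of brown fat, lay at 6.74 and 5.23 in NOB, 5.81 and 6.97 in HFD and 6.16 and 7.11 in RC. A short list of brown adipose markers was written after the Ucp1 value was seen, and its median over 6 measured genes was -0.44 in NOB, 0.90 in HFD and 0.95 in RC. Cox8b, a cytochrome oxidase subunit of brown fat and muscle, lay at 7.79 and 7.0 in NOB, 6.98 and 8.20 in HFD and 7.58 and 8.70 in RC. Fabp3 had the same signs, at -0.42 in NOB, 1.12 in HFD and 0.95 in RC, as had Cox7a1, at -0.19, 0.67 and 0.30. The remaining members, Cidea and Ppargc1a, did not share this pattern. Cidea differed by 0.05 in NOB, -1.09 in HFD and 1.79 in RC, and Ppargc1a, a coactivator of mitochondrial genes, by -0.46, -0.82 and -0.12. The adipocyte gene Adipoq differed by -0.08, 0.56 and 0.91. The part of other tissue in the Ucp1 values was not tested.

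**Figure D5:**
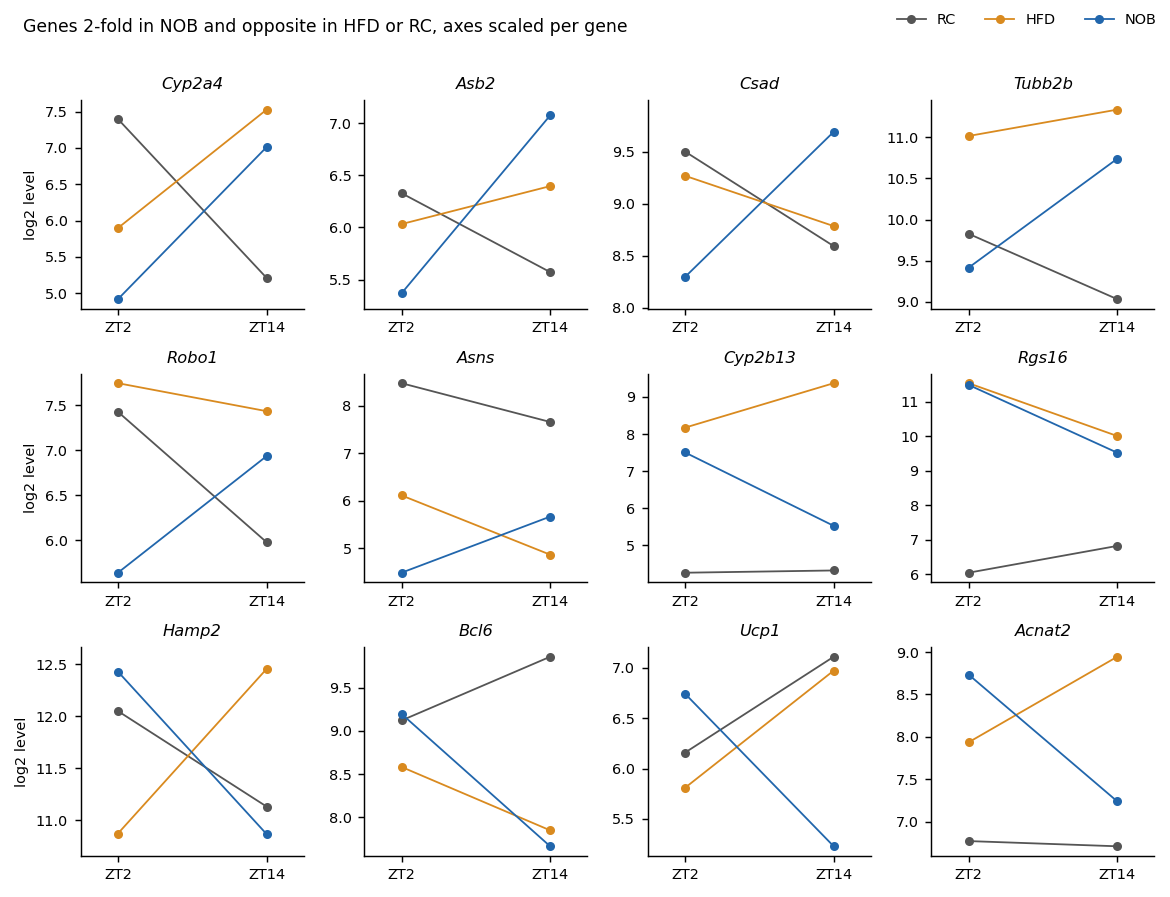
Log2 levels at ZT2 and ZT14 of 12 of the 18 genes that were at least 2-fold in NOB (blue) and at least 1.5-fold the opposite way in HFD (orange) or RC (grey), 1 pooled array per point, with vertical axes scaled per gene. The NOB and HFD lines cross for Hamp2, Acnat2 and Ucp1, and run side by side for Rgs16, where RC lies far below at 6.05 and 6.82.

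Groups in which no gene of NOB passed 2-fold either way were oxidative phosphorylation (24 genes, median 0.11), cytosolic ribosomal proteins (10, -0.06), ribosome biogenesis (17, 0.20), amino acid breakdown and the urea cycle (16, -0.10), NRF2 targets (13, 0.19), the interferon response (14, 0.06) and cell division (9, -0.06). Immediate-early genes (9, -0.22) held Egr1, a transcription factor that differed by -0.23 in NOB and 0.16 in HFD and by -3.21 in RC. Of the cell division genes Mcm5, a subunit of the replicative helicase, differed by -0.45 in NOB and 1.69 in HFD. Among 22 drug metabolism genes, Cyp2b10 and Cyp2a4 were past 2-fold higher and Cyp2b13 past 2-fold lower, against 0.776% and 0.459% of all genes. Alas1, the first enzyme of haem synthesis, lay at 12.40 and 13.20, and the list median was 0.21. Of 20 acute phase genes only Hamp2 was past 2-fold, and its relative Hamp, hepcidin itself, had the opposite sign in NOB at 12.06 and 12.84.

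Of the genes past 2-fold, 49 of the 66 higher and 37 of the 39 lower had a RefSeq promoter window, as had 6960 of the 8505 measured genes, and 9 motifs were searched on both strands. The endoplasmic reticulum stress element was found in the windows of 4 of the 37 lower genes (10.8%), Acnat2, Calr, Creld2 and Ero1b, in 5 of 17 genes of the stress response list and in 0.187% of measured genes. The heat shock element was in 2 of the 37 (5.41%), Acnat2 and Hsph1, in 4 of 10 genes of the heat shock list and in 0.546% of measured genes. The E-box was in 4 of the 49 higher (8.16%) and 4 of the 37 lower genes (10.8%) against 12.1% of measured genes, and in Per1, Tef and Ciart among 8 dusk clock genes.

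For ROR receptors only half-sites were searched, without flanking bases. The half-site TGGGTCA was in 7 of the 49 higher genes (14.3%), Marco, Pex11a and Rbp4 among them, and in 1 of the 37 lower ones, against 4.25% of measured genes. Its other form TAGGTCA was in 3 of the 49, Cxcl13, G6pc and Caln1, and in 1 of the 37, against 2.66%. The GAS element TTCNNNGAA, the site of STAT factors, was in 4 of the 49 and 7 of the 37 against 8.09%. The sterol element TCACNCCAC was in 2 of the 49 and 2 of the 37 against 1.54%. The D-box forms TTATGTAA and TTACGTAA were in none of the 37, and the second was in G6pc alone among the 49, against 0.761% and 0.201%. Overlaps between motifs were not removed, a match is not a bound site, and no match says only that these letters are absent from the window.

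Of the 105 genes, 32 had another detected probe. In 30 of these every other probe had the same sign and in 13 every other probe was past 2-fold as well, among them Nrg4 (2.16 and 2.02), Per2 (1.17 and 1.11), Creld2 (-1.17 and -1.16) and Ttc39a (2.03 and 1.04). The exceptions in sign were Thrsp and Rgs3, given above. Ly6d, a surface antigen that was bright in HFD (9.17 and 9.32) and dim in RC, lay at 5.38 and 6.72 in NOB, with a second probe at 1.64. Hectd2os, 11.3-fold lower at ZT14, had the largest fold of all 8505 genes in NOB.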

How the data were processed

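Liver RNA of 6 pools was hybridised to Illumina bead arrays, 1 array per arm and time, and each array was placed by its title. The deposited non-normalized table holds, per the file headers, an average bead intensity and a detection p-value for each probe. The authors' processed matrix holds a second intensity on a linear scale, made with GenomeStudio per the submitters' processing notes, with the version and options not given in the sources used here. Each of its columns followed its own array (r of at least 0.9999), its direction is settled, its columns have a median of 3.5 and a lowest value of -15.9, and the amount subtracted is unknown.

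The intensities were corrected and quantile normalized with neqc (offset 16) in limma 3.58.1 under R 4.3.3, which gives log2 levels. These log2 values were computed from the deposited intensities. Lists were summarised and plotted with Python 3.11.15, pandas 2.3.3 and matplotlib 3.10.9. Platform symbols named 34885 probes, 18 probes had several symbols and 10378 were not listed. By gene identifier 34807 matched the RefSeq table of GRCm38.p6, which changed 0 symbols. A gene with several detected probes was read from the one with the highest mean. Calls within an arm used 2-fold with no test, and precision is limited by how few arrays there are.

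The tests were limma fits over 8561 genes detected on at least 2 of the 6 arrays, two-sided, with Benjamini-Hochberg adjustment. The fit of time with arm as a block left 2 residual degrees of freedom, to which moderation added 4.82, and the fit of NOB against the other arms left 1. They were tested on simulated data with 200 changed genes: the first recovered 83% of 2-fold and 100% of 4-fold changes with 4 false calls, the second 1% and 51% with 5. The 2-fold and 4-fold changes were planted in equal numbers, and for the first test at the same size in every arm. The noise of both simulations had the spread of the first fit. These rates need not hold in the real data, where Caln1, at 1.00 ± 0.12 (SE), did not pass the first test (adjusted p = 0.0612). Of the 10 genes measured past 2-fold the same way in every arm, 2 passed the first test. Hectd2os, at -2.59 ± 0.40 (SE), was not among those that passed (adjusted p = 0.109). How often the first test recovers a difference whose size varies between arms was not tested. P-values measure the spread between arms, since there were no replicates.

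Alternatives were scale normalization, normalization of each arm alone, the authors' matrix, an offset of 50, other detection filters, the mean of all detected probes, a 1.5-fold call, and leaving out each arm. Genes were named by rule: the 8 largest differences each way in NOB, up to 4 bounded ones and up to 5 shared in all arms. The rule also took up to 8 under 1.5-fold in both other arms and up to 6 opposite in another arm. It added all clock genes and the 4 largest members of each of the other lists. Other names were chosen after their values were seen. The members and the gene lists were chosen with earlier results of these data known.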

Additional observations from a re-analysis of the deposited data

Results flagged for a closer look

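For 18 genes the measured day-night difference in NOB was past 2-fold and lay at least 1.5-fold the other way in the HFD or the RC arm, which drew attention to them as effects of opposite sign between arms with 1 array on each side. The shares of all genes past 1.5-fold were 2.9% higher and 2.32% lower in HFD, and 3.86% and 5.31% in RC. The 12 genes given here are the 6 of each direction with the largest differences in NOB. In each case the difference between the arms was not tested for that pair of arms alone. On the higher side were Cyp2a4 at 2.09 (RC -2.19), Asb2 at 1.71 (RC -0.76), Csad at 1.39 (RC -0.91), Tubb2b at 1.32 (RC -0.79), Robo1 at 1.30 (RC -1.45) and Asns at 1.18 (HFD -1.25, RC -0.82). Asns was undetected in NOB at ZT2 and in HFD at ZT14, so its fold is bounded only at 1.69 in NOB and 2.10 in HFD, and a 2-fold difference in NOB is not shown. On the lower side were Cyp2b13 at -1.98 (HFD 1.20), Rgs16 at -1.97 (RC 0.78), Hamp2 at -1.56 (HFD 1.58), Bcl6 at -1.53 (RC 0.74), Ucp1 at -1.51 (HFD 1.16, RC 0.95) and Acnat2 at -1.50 (HFD 1.01). Csad, Asns, Robo1, Asb2, Cyp2b13, Acnat2 and Ucp1 passed the test of NOB against the mean of the other arms after scale normalization, and after quantile normalization none of the 12 passed it with the brightest probe, while Ucp1 passed with the mean of all detected probes.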

How the results depend on the processing

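The 2-fold counts in NOB stayed at 59 to 68 higher and 33 to 49 lower genes, with 8 to 10 shared by all arms. Of the 2-fold genes, 33 to 41 were under 1.5-fold in both other arms. These ranges cover scale normalization, each arm normalized alone, the authors' matrix, other detection filters and the mean of all detected probes. An offset of 50, which compresses dim genes, gave 37 higher and 28 lower genes and 6 shared by all arms. It gave 25 genes under 1.5-fold in both other arms, of which 22 were in that class in the main setting. A 1.5-fold call gave 336 higher, 296 lower and 46 shared genes. With that call 383 genes were past 1.5-fold in NOB and under it in both other arms. Chosen after seeing the data, leaving out the RC pair gave 23 genes shared with HFD and 55 under 1.5-fold in HFD. Leaving out the HFD pair gave 25 shared with RC and 56 under 1.5-fold in RC. Fewer arms must then meet the rule. None of the 56 named 2-fold genes changed sign under the alternatives run, and 13 of 1358 gene values moved by at least 1.5-fold, 11 of them with the offset of 50. Scale normalization moved the median of all genes in HFD from -0.01 to -0.14.

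The common day-night test, 2 genes, gave 18 after scale normalization, 5 with the offset of 50, 0 with no detection filter, 1 with the mean of probes, 36 with a trended and robust variance and 0 without arm as a block, and 1 to 11 when 1 arm was left out. Thrsp and Tnnc1 were among the genes called in each of these settings except the unfiltered and unblocked fits, the fit without HFD and, for Thrsp, the mean of probes. The test of NOB against the other arms, 0 genes, gave 40 after scale normalization and 3 with the mean of probes. The cause was not tested. The arm block of the first test pairs ZT14 with ZT2 within each arm, and no other pairing is in the labels. Genes near background are limited most: 825 of the 8505 were detected on 1 NOB array only, and 1491 probes had a lowest detection p between 0.005 and 0.01.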

Other observations

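Of 1936 detected probes with no gene symbol or several, 16 were past 2-fold on the higher side and 12 on the lower side at ZT14 in NOB, with differences from -2.26 to 2.37. Cela1, a pancreatic elastase gene and the only measured marker of exocrine pancreas, lay at 9.56 and 8.58 in NOB, and the summed level of that marker list was 952 and 582. Antigen presentation genes, which include the class II molecules, had medians of 0.12 in NOB, 0.59 in HFD and -0.49 in RC over 6 genes. Stellate cell markers had a median of -0.09 over 6 genes in NOB, with Acta2, smooth muscle actin, at 6.96 and 6.27 there and at 1.13 for the difference in RC. Among interferon-response genes Oasl1 differed by 0.92 in NOB and -0.63 in HFD, and Igtp, a GTPase induced by interferon gamma, by -0.76 and 0.52.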
